A study of Mus musculus with 15 samples.

Results

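The microRNAs (miRNAs) of liver from mice given a carcinogen were compared with those of mice given PBS, with 1 small RNA library per group. NCD livers came from wild-type male C57BL/6 mice that received DEN (diethylnitrosamine, a carcinogen that hepatocytes activate) by injection when 2 weeks old and stayed on normal chow. Nor livers came from wild-type C57BL/6 males given PBS at the same age and kept on the same chow. Males of both groups were offspring of the F0 generation and were killed at 40 weeks (10 months by the labels), and the labels do not say which diet their own mothers ate. The sample label of NCD names the chow as its treatment, and DEN is given in the protocol. RNA of 4 to 8 animals was combined into 1 small RNA pool and 2 long RNA pools per group, so no value below gives the spread between animals. Levels are also shown for H1D, H2D and H3D, wild-type C57BL/6 males given DEN in the same way but kept on a high-fat diet (60% of energy from fat), the offspring of F0, F1 and F2 females of a line fed that diet. Those libraries differ from NCD in diet and ancestry at once, and they are given as levels only.

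A miRNA was included when the NCD and Nor libraries together held at least 100 reads of it. This was the case for 290 of the 1054 rows of the count table, of which 879 had any read in either library. The NCD library held 7162150 miRNA reads and the Nor library 8097887, and the 290 miRNAs took 99.93% of the reads in NCD and 99.95% in Nor. Levels are in RPM, which sets the summed miRNA reads of each library to 1 common size, and a log2 ratio is log2 of NCD over Nor after adding 0.5 RPM to each. Plain ratios are given with an exact 95% interval, which covers counting error only and not the spread between animals or library preparations. The reads carry no molecular identifiers, so even that error may be understated. With 1 library per group there is no test, and "higher" and "lower" describe these 2 libraries.

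A miRNA is cut from a hairpin precursor as a short RNA of the 5′ arm (5p) or the 3′ arm (3p). Loaded into an Argonaute protein, it pairs with messenger RNAs mainly through its seed, bases 2 to 8, and lowers their translation or stability. Hepatocytes are known for the dominance of miR-122, while the large miRNA group of the imprinted Dlk1-Dio3 region is known to be active in the fetus and to be low in adult liver. Many miRNAs lie in clusters that are transcribed as 1 RNA, and copies in different clusters can share a seed.

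Sequences are shown for the miRNAs on which the comparison turned and for relatives that differ from them by few bases. They are mature sequences from RefSeq (GRCm38.p6), written 5′ to 3′ with the seed in capitals. Of the 290 miRNAs, 251 had an entry in that table. The first pair has 1 seed and comes from different chromosomes, miR-146b-5p from chr19:46342790-46342811 (plus strand) and miR-146a-5p from chr11:43374435-43374456 (minus strand). Counted from the 5′ end and with the base of miR-146a-5p first, they differ by G18A and U21C.
miR-146b-5p: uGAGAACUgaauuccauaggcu
miR-146a-5p: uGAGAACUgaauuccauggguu
The next set belongs to the Dlk1-Dio3 region on the plus strand of chromosome 12, from miR-127-3p at chr12:109592888-109592909 to miR-409-3p at chr12:109743204-109743225. These are its most abundant members, the member with the largest log2 ratio (miR-409-3p), and a pair of 3′ arms with 1 seed, miR-379-3p and miR-411-3p, that differ by U10C and U22C.
miR-127-3p: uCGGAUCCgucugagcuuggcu
miR-434-5p: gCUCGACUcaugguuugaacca
miR-379-5p: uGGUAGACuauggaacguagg
miR-411-5p: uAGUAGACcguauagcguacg
miR-541-5p: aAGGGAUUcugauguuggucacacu
miR-409-3p: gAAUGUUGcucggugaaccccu
miR-379-3p: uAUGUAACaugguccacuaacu
miR-411-3p: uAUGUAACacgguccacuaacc
The next set lies outside that region: miR-155-5p and miR-34a-5p, which were higher in every DEN library than in Nor, and a cluster in which each measured member was higher in NCD. miR-155-5p lies at chr16:84714143-84714165 (plus strand), miR-34a-5p at chr4:150068473-150068494 (plus strand), and miR-182-5p, miR-96-5p and miR-183-5p within chr6:30165962-30169732 (minus strand).
miR-155-5p: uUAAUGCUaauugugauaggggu
miR-34a-5p: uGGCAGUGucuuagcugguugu
miR-182-5p: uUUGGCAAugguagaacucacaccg
miR-96-5p: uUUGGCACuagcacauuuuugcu
miR-183-5p: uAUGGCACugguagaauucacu
The miR-200 family comes from 2 places, miR-200b, miR-200a and miR-429 from chr4:156053916-156055706 (minus strand) and miR-200c-3p from chr6:124718324-124718346 (minus strand). The seed of miR-200a-3p differs from that of the other members.
miR-200b-3p: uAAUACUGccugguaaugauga
miR-200c-3p: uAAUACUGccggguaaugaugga
miR-429-3p: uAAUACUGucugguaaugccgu
miR-200a-3p: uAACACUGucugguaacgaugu
The last sequences are pairs with 1 seed whose ratios differed in the data below. miR-10b-5p and miR-10a-5p differ by U12A (miR-10a-5p first), miR-19a-3p and miR-19b-3p by C11U (miR-19b-3p first), and miR-27a-3p and miR-27b-3p by U19C (miR-27b-3p first), while miR-329-3p and miR-362-3p share little beyond the seed.
miR-10b-5p: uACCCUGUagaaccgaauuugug
miR-10a-5p: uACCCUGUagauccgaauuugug
miR-19a-3p: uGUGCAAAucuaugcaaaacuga
miR-19b-3p: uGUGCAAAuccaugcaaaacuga
miR-27a-3p: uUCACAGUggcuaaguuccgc
miR-27b-3p: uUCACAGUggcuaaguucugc
miR-329-3p: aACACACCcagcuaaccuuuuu
miR-362-3p: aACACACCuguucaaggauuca

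Of the 290 miRNAs, 57 were at least 2-fold higher in NCD than in Nor (19.7%), and 0 were at least 2-fold lower (0.0%). The remaining 233 lay within 2-fold. For 51 of the 57, the whole counting interval of the ratio lay above 2. The interval lay above 1 for 152 miRNAs, below 1 for 60 and held 1 for 78. The median log2 ratio over all 290 was 0.24, and it was -0.06 after scaling by TMM (trimmed mean of M-values), a shift of -0.30 that is smaller for miRNAs at low RPM because of the 0.5 RPM added. With TMM, 47 miRNAs were at least 2-fold higher (16.2%) and 7 at least 2-fold lower (2.41%). The largest ratios named below lie far above 2-fold under both scalings, while small positive log2 ratios on the RPM scale mostly lie below 0 with TMM.

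**Figure D1:**
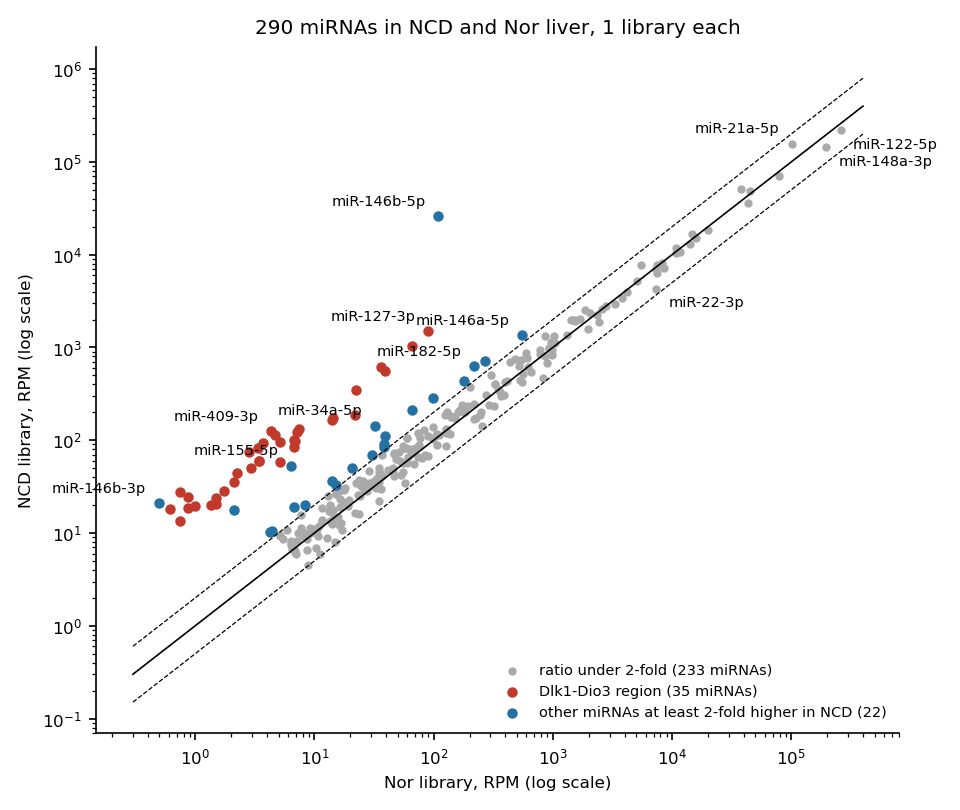
RPM of the 290 miRNAs in the NCD library (vertical, log scale) against the Nor library (horizontal, log scale), 1 point per miRNA. The solid line is equality and the dashed lines mark 2-fold; the 35 miRNAs of the Dlk1-Dio3 region form a band above the lines, miR-146b-5p stands alone at 25979 RPM in NCD and 109 RPM in Nor, and the abundant miRNAs lie near equality.

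The 57 higher miRNAs divide into 35 of the Dlk1-Dio3 region and 22 from elsewhere. Because a miRNA that was rare in Nor could enter only through its reads in NCD, the filter itself favours higher values. Of the 57, 26 had under 50 reads in Nor, and 22 of those belong to the Dlk1-Dio3 region. When at least 100 reads were asked of Nor alone, 217 miRNAs remained, of which 23 were at least 2-fold higher (10.6%) and 0 lower. Outside the Dlk1-Dio3 region that rule left 209 miRNAs, 15 of them higher.

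miR-146b-5p had the largest ratio. It was counted 186063 times in NCD and 883 times in Nor, or 25979 RPM in NCD and 109 RPM in Nor, a ratio of 238 (interval 223 to 255) and a log2 ratio of 7.89 (7.59 with TMM). It made up 2.60% of all miRNA reads in NCD and 0.0109% in Nor. In the high-fat DEN libraries it stood at 40006 RPM in H1D, 17454 RPM in H2D and 23264 RPM in H3D, so every DEN library lay far above Nor. miR-146b is known as a cytokine-responsive miRNA that dampens Toll-like receptor signalling.

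The other arm of the same hairpin, miR-146b-3p, had 150 reads in NCD and 4 in Nor, which is 20.9 RPM in NCD and 0.494 RPM in Nor. Its log2 ratio of 4.43 rests on those 4 reads, and the interval of the ratio ran from 16.2 to 158. Its H1D, H2D and H3D levels were 24.9, 13.0 and 20.5 RPM. The log2 ratios of the arms differed by 3.46, against a median gap of 0.16 over the 73 hairpins with both arms measured. The 0.5 RPM added lowers the log2 ratio of the rare 3p arm, and without it the plain ratio was 238 for the 5p arm and 42.4 for the 3p arm. The interval of the 5p ratio lay wholly above that of the 3p ratio.

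miR-146a-5p, which shares the seed of miR-146b-5p and all but the positions given above, had 1350.3 RPM in NCD and 555.7 RPM in Nor. Its ratio was 2.43 (interval 2.35 to 2.52) and its log2 ratio 1.28, or 0.98 with TMM, short of 2-fold. It stood at 1493 RPM in H1D, 1732 RPM in H2D and 617 RPM in H3D. The mismatches lie in the 3′ part of the molecule, and how the authors assigned reads between such near copies is not given in the sources used here, so the split of reads between them is uncertain. In RefSeq the hairpin of miR-146b lies within the long noncoding gene model Gm36493, and that of miR-146a lies in none of the gene models of the table.

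Most of the higher miRNAs came from the Dlk1-Dio3 region. The region is imprinted: its miRNAs are made from the maternal chromosome together with the noncoding RNAs Meg3, Rian and Mirg. The table holds 88 of its mature miRNAs, of which 84 had a read in NCD or Nor and 35 passed the minimum. All of those 35 were at least 8-fold higher in NCD, with ratios of 8.48 to 37.5 and a median of 16.9. Among the 49 below the minimum that had reads, 48 had more RPM in NCD than in Nor. Some of these rest on single reads: miR-1188-5p had 1 in NCD and 0 in Nor, and miR-410-5p had 1 in each library. Rare rows also enter largely through their reads in NCD, so this count adds no separate support. Summed without the antisense rows miR-3070 and miR-3071, the region held 6153 RPM in NCD and 385.7 RPM in Nor, a ratio of 15.95 (interval 15.4 to 16.5).

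Its most abundant member, miR-127-3p, had 1502 RPM in NCD and 90.0 RPM in Nor (10756 reads in NCD, 729 in Nor), a ratio of 16.7 (interval 15.5 to 18.01). miR-127 is processed from an RNA antisense to Rtl1, a gene it is known to repress in placenta. miR-379-5p had 1035 RPM in NCD and 65.6 RPM in Nor, and miR-541-5p had 615 RPM in NCD and 36.3 RPM in Nor. miR-411-5p had 559 RPM in NCD and 39.0 RPM in Nor. These 4 were not among the largest log2 ratios of the region but rest on the most reads, and each interval lay wholly above 12.

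The largest log2 ratio in the region was that of miR-409-3p, at 4.71, with 898 reads in NCD and 35 in Nor. miR-543-3p followed at 4.51 (199 reads in NCD, 6 in Nor), miR-134-5p at 4.50 (537 reads in NCD, 23 in Nor), miR-494-3p at 4.49 (94.2 RPM in NCD, 3.70 RPM in Nor) and miR-409-5p at 4.47 (820 reads in NCD, 38 in Nor). miR-134 is known from neurons, where it restrains Limk1 at dendritic spines. The counting intervals of these 5 overlap, so their order is not resolved at this depth. The member with the smallest log2 ratio was miR-381-3p, at 3.06, with 1328 reads in NCD and 177 in Nor (interval of the ratio 7.25 to 9.98). Its interval lay wholly below those of miR-409-3p, miR-134-5p and miR-494-3p.

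Ratios are given next by position within the region. The members with a RefSeq position span 158 kb and on the plus strand fall into 3 groups when gaps of 10 kb divide them. The 8 miRNAs from miR-337-5p to miR-136-3p had log2 ratios of 3.54 to 4.08, miR-341-3p and miR-370-3p within Rian had 4.43 and 3.69, and the 22 from miR-379-5p to miR-410-3p had 3.06 to 4.71. The 5 members within Mirg had ratios of 16.9 to 29.4, and the 27 that lie in none of the 3 RNAs as RefSeq draws them had 8.48 to 37.5. All 9 hairpins of the region with both arms measured had both arms higher. The rows of miR-3071 need care in this count: miR-3071-5p and miR-3071-3p are annotated antisense to miR-136-3p and miR-136-5p, and their reads (1187 in NCD and 114 in Nor for miR-3071-5p, 1232 in NCD and 116 in Nor for miR-136-3p) are nearly those of the partner.

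In the other DEN libraries the region was lower than in NCD. Its sum was 6153 RPM in NCD, 2644 RPM in H1D, 1669 RPM in H2D and 873 RPM in H3D, against 385.7 RPM in Nor. For 34 of the 35 members the levels stood in that descending order over the 4 DEN libraries. The exception was miR-376c-3p, with 24.02 RPM in NCD, 7.65 RPM in H1D, 8.06 RPM in H2D and 4.95 RPM in H3D. In 7 members the H3D level was lower than in Nor, among them miR-127-3p at 87.0 RPM in H3D and 90.0 RPM in Nor and miR-434-3p at 4.52 RPM in H3D and 6.92 RPM in Nor. As the members are cut from shared RNAs and counted in the same 5 libraries, they are not independent readings of this order.

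**Figure D2:**
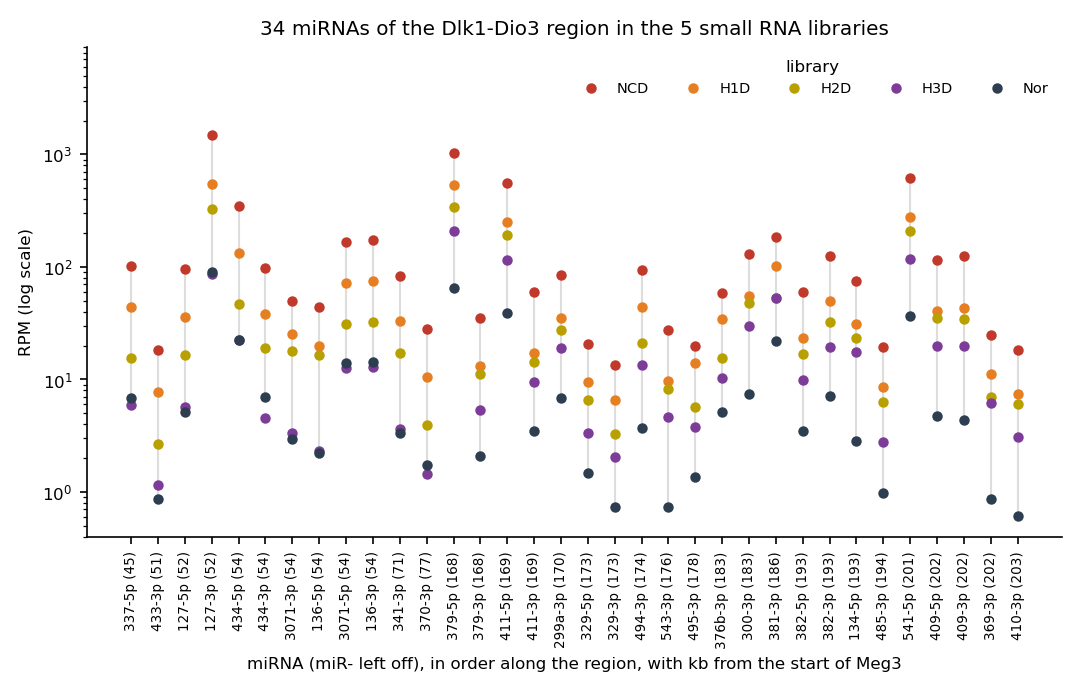
RPM (log scale) of the 34 Dlk1-Dio3 miRNAs that passed the minimum and have a RefSeq position, in the order in which they lie along the region, with their distance from the start of Meg3 in kb. Each point is 1 library; NCD is the highest for each miRNA, and H3D lies near or below Nor for those close to miR-127-3p.

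The long noncoding RNAs of the region were measured in the 2 long RNA pools per group, in FPKM (fragments scaled to transcript length and library size), and tested with limma. Rian, summed over 2 transcripts, had 5.54 and 18.7 FPKM in the NCD pools and 1.36 and 0.183 FPKM in the Nor pools. Meg3, over 3 transcripts, had 1.84 and 5.70 FPKM in NCD and 0.934 and 0.220 FPKM in Nor. Both NCD pools lay above both Nor pools for these RNAs, and NCD pool 2 lay about 3-fold above NCD pool 1. Neither passed the test: the Rian transcript ENSMUST00000181253 had a log2 change of 3.17 ± 0.94 (SE, n = 2 pools each, limma adjusted p = 0.142) and the Meg3 transcript ENSMUST00000143836 one of 1.63 ± 0.61 (SE, limma adjusted p = 0.224). Mirg was at 0 in NCD pool 1, 1.30 FPKM in NCD pool 2 and 0 in both Nor pools. The coding neighbour Dlk1, a fetal growth regulator, had 0.270 and 0.226 FPKM in NCD and was listed at 0 in both Nor pools, too low to be tested. In the high-fat groups the pools of Rian also lay apart, at 7.86 and 2.39 FPKM in H1D, 0.463 and 4.61 FPKM in H2D and 1.45 and 0.363 FPKM in H3D. The order of the single small RNA libraries given above likewise carries an unknown spread between pools.

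Outside miR-146b and the Dlk1-Dio3 region, 20 miRNAs were at least 2-fold higher. miR-155-5p, known for its role in activated lymphocytes and macrophages, had the largest log2 ratio of these, with 381 reads in NCD and 52 in Nor. Its level was 53.2 RPM in NCD, 53.3 RPM in H1D, 54.0 RPM in H2D and 40.9 RPM in H3D, against 6.42 RPM in Nor, and its log2 ratio was 2.96 (plain ratio 8.28, interval 6.19 to 11.3). The 4 DEN libraries lay close together. miR-582-3p, which lies within Pde4d, had 128 reads in NCD and 17 in Nor (17.9 RPM in NCD, 2.099 RPM in Nor, log2 ratio 2.82, plain ratio 8.51), and stood higher still in the high-fat libraries (31.5 to 38.7 RPM). Pde4d, a cAMP phosphodiesterase, had 3.61 and 4.06 FPKM in the NCD pools and 2.40 and 2.83 FPKM in the Nor pools. It did not pass the test (limma adjusted p = 0.127), but was called with the replicate number as a block.

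miR-34a-5p is a direct transcriptional target of p53. It had 143 RPM in NCD and 32.2 RPM in Nor, a ratio of 4.43 (interval 3.86 to 5.10), with 165 to 168 RPM in the 3 high-fat libraries. miR-34c-5p, from a separate p53-responsive cluster, had 20.2 RPM in NCD and 13.5 RPM in Nor, with a log2 ratio of 0.57. The other 3 arms of the family were below the minimum. The interval of the miR-34a-5p ratio lay above that of miR-34c-5p (1.17 to 1.95).

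The cluster of miR-182-5p, miR-96-5p and miR-183-5p, best known from sensory organs and often studied in tumours, was higher in each of its members. miR-182-5p had 629 RPM in NCD and 220 RPM in Nor (log2 ratio 1.52), miR-183-5p had 283 RPM in NCD and 99.4 RPM in Nor (1.51), and miR-96-5p had 50.8 RPM in NCD and 20.7 RPM in Nor (1.27, or 0.98 with TMM). In H1D, H2D and H3D the summed level of the cluster was 1322, 1341 and 1387 RPM, against 964 RPM in NCD and 340.2 RPM in Nor. The levels of the 3 miRNAs differ widely within a library, while the intervals of their ratios overlap.

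The miR-200 family marks epithelia and in liver is known from bile duct cells. Of its 7 mature miRNAs in the table, 5 passed the minimum and 3 of those were at least 2-fold higher, against 19.7% of all 290. miR-200b-3p had 724 RPM in NCD and 269 RPM in Nor (log2 ratio 1.43), miR-200c-3p had 36.6 RPM in NCD and 14.1 RPM in Nor (1.35), and miR-200a-5p had 18.8 RPM in NCD and 6.79 RPM in Nor (1.41). miR-200a-3p, at 699 RPM in NCD and 435 RPM in Nor (0.68), and miR-429-3p, at 29.2 RPM in NCD and 17.8 RPM in Nor (0.70), did not reach 2-fold, although miR-200a-3p is the other arm of the hairpin of miR-200a-5p and miR-429 lies in the same cluster. Levels in the high-fat libraries were uneven: miR-200c-3p stood at 32.5 RPM in H1D, 14.8 RPM in H2D and 8.74 RPM in H3D, the last below Nor. In the long RNA pools, 2 of 4 tested bile duct markers rose (against 7.93% of all genes tested), Spp1 (256 and 204 FPKM in NCD, 11.2 and 16.4 FPKM in Nor, limma adjusted p = 0.00272) and Prom1 (8.999 and 5.44 FPKM in NCD, 0.432 and 0.278 FPKM in Nor, limma adjusted p = 0.000827). The summed level of all 10 listed markers was 277 and 222.1 FPKM in NCD and 18.2 and 26.8 FPKM in Nor, most of it Spp1, which other cells of injured liver also make. The part of these cells in the miR-200 levels was not tested. In RNA of whole tissue, more cells of a type and more of an RNA per cell cannot be told apart.

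miR-10b-5p and miR-10a-5p lie beside the Hoxd and Hoxb genes. miR-10b-5p had 211 RPM in NCD and 65.8 RPM in Nor (log2 ratio 1.67), with 180 RPM in H1D, 117 RPM in H2D and 89.0 RPM in H3D. miR-10a-5p, of the same seed and 1 base different, had 10766 RPM in NCD and 11241 RPM in Nor (-0.06). How reads were assigned between such near copies is not given, so the smaller value of the pair is the less certain.

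Further members past 2-fold came from several loci. miR-542-3p had 112 RPM in NCD and 38.8 RPM in Nor (log2 ratio 1.52), whereas the other 5 miRNAs of its X-linked cluster, among them miR-322-5p and miR-351-5p, lay between 0.37 and 0.77. miR-31-5p had 436 RPM in NCD and 178 RPM in Nor (1.29), and its other arm was at 0.53. miR-335-5p had 91.5 RPM in NCD and 38.4 RPM in Nor (1.24) and miR-335-3p had 69.3 RPM in NCD and 30.6 RPM in Nor (1.16). Both arms of miR-335 lie within Mest, an imprinted gene made from the paternal chromosome. Mest had 1.30 and 1.52 FPKM in the NCD pools and 0.370 and 0.619 FPKM in the Nor pools, which do not overlap. The change did not pass the test (log2 0.95 ± 0.29, SE, limma adjusted p = 0.0624). It did pass with a pseudocount of 0.1, with FPKM scaled to equal sums and with the replicate number as a block.

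The smallest of the ratios past 2-fold rest on few reads or turn on the scaling. miR-19a-3p had 143 reads in NCD and 67 in Nor (log2 ratio 1.22), and miR-19b-3p of the same cluster and seed had 1344 reads in NCD and 1005 in Nor (0.59). miR-129-5p and miR-129b-3p, at 75 and 74 reads in NCD and 36 and 34 in Nor, are annotated on opposite strands of 1 place, and their reads cannot be told apart here. miR-150-5p, a miRNA of mature lymphocytes, had 84.1 RPM in NCD and 38.5 RPM in Nor (1.12), and H3D, at 38.3 RPM, did not lie above Nor. miR-27a-5p had 32.5 RPM in NCD and 15.3 RPM in Nor (1.06). With TMM, miR-31-5p, miR-146a-5p, miR-96-5p, both arms of miR-335, miR-19a-3p, the miR-129 pair, miR-150-5p and miR-27a-5p dropped below 2-fold.

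**Figure D3:**
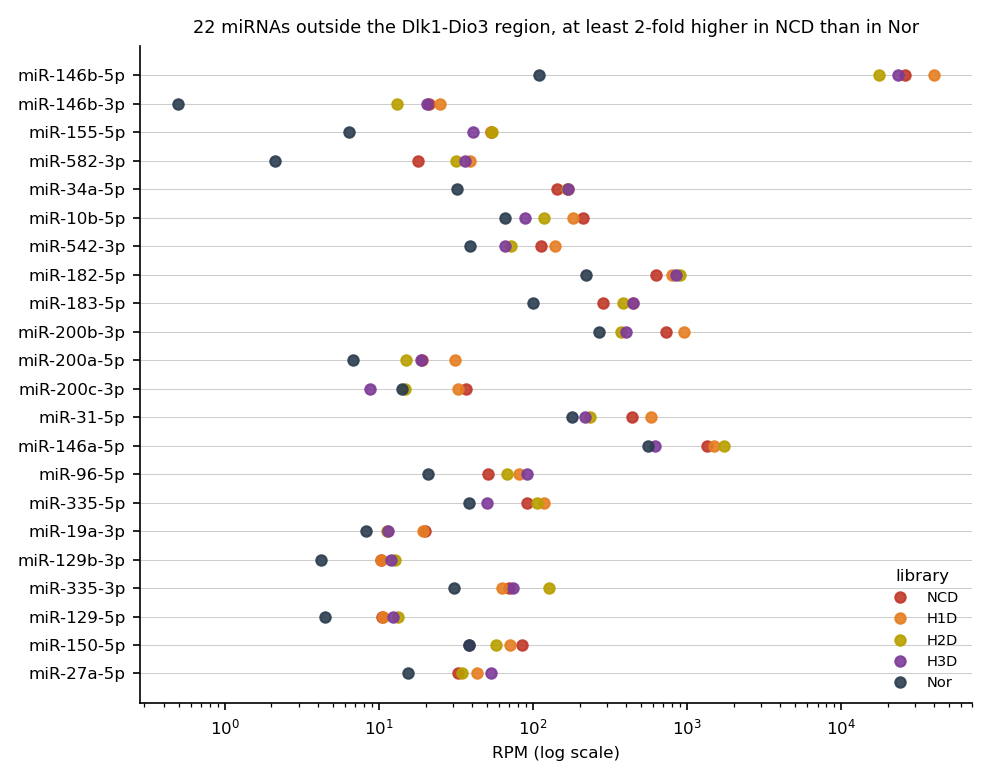
RPM (log scale) in each of the 5 small RNA libraries for the 22 miRNAs outside the Dlk1-Dio3 region that were at least 2-fold higher in NCD than in Nor, ordered by that ratio from the top. Nor is the lowest point of most rows; for miR-200c-3p and miR-150-5p the H3D point lies at or below it.

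miR-27a-3p, which the published study of these mice followed, was within 2-fold. It had 798 RPM in NCD and 597 RPM in Nor, a ratio of 1.34 (interval 1.29 to 1.39), with 988 RPM in H1D, 1075 RPM in H2D and 1015 RPM in H3D. With TMM its log2 ratio was 0.12, against 0.42 on the RPM scale. miR-27b-3p, its relative of the same seed, was far more abundant, at 13063 RPM in NCD and 14219 RPM in Nor. The log2 ratio of miR-27b-3p was -0.12, so the more abundant carrier of the seed was slightly lower in NCD.

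The abundant miRNAs of hepatocytes stayed within 2-fold and were mostly a little lower. miR-122-5p took 22.1% of the reads in NCD and 26.0% in Nor, at 220992 RPM in NCD and 259747 RPM in Nor (ratio 0.851). miR-148a-3p had 144331 RPM in NCD and 197225 RPM in Nor (ratio 0.732), and miR-192-5p had 71060.0 RPM in NCD and 78873 RPM in Nor (ratio 0.901). All 13 miRNAs of the hepatocyte list passed the minimum, and 0 were past 2-fold in either direction. Over all 290, 19.7% were at least 2-fold higher and 0.0% at least 2-fold lower, so 0 lower does not set this list apart. The 13 had a median log2 ratio of -0.23, against 0.24 over all 290. With TMM their median was -0.53, against -0.06 over all 290. On that scale miR-802-5p and miR-802-3p were at least 2-fold lower, as were 2.41% of all 290. Their sum was 482713 RPM in NCD and 585389 RPM in Nor. RPM values share 1 total, so they are shares and not amounts per cell.

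miR-21a-5p, which is abundant in many tumours and lowers Pdcd4 in cultured cells, had the largest log2 ratio of the 10 most abundant. It had 157902 RPM in NCD and 100975 RPM in Nor (ratio 1.56), with 168061 RPM in H1D, 208276 RPM in H2D and 258959 RPM in H3D. It took 15.8% of the reads in NCD and 10.1% in Nor. Vmp1, whose transcription unit runs into miR-21a, had 57.96 and 53.01 FPKM in NCD and 47.1 and 62.3 FPKM in Nor (log2 change 0.03 ± 0.13, SE, limma adjusted p = 0.884, with the sign turned when Nor replicate 1 or NCD replicate 1 was left out). The 10 most abundant miRNAs, which also include let-7f-5p, miR-30a-5p, let-7g-5p, miR-101b-3p, miR-126a-3p and miR-194-5p, all lay between a log2 ratio of -0.45 and 0.65.

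The lowest ratios were modest. miR-365-2-5p had 4.47 RPM in NCD and 8.89 RPM in Nor (log2 ratio -0.92), from 32 reads in NCD and 72 in Nor. miR-455-5p had 467.2 RPM in NCD and 831 RPM in Nor (-0.83), with 236 RPM in H1D, 149 RPM in H2D and 162 RPM in H3D, so each high-fat library was lower again. miR-22-3p, an abundant miRNA, had 4323 RPM in NCD and 7378 RPM in Nor (-0.77) and stood between 4076 and 4312 RPM in the high-fat libraries. miR-802-5p, which is enriched in liver and pancreas, had 34.3 RPM in NCD and 57.8 RPM in Nor (-0.74). With TMM these 4 passed 2-fold, together with miR-802-3p, miR-345-3p and miR-1948-5p.

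Lists of miRNAs that mark cell types differed in where their ratios lay. Of 4 myeloid miRNAs that passed the minimum, 1 was past 2-fold (miR-146a-5p, not past it with TMM), against 19.7% of all 290, and the median log2 ratio was 0.90. miR-142a-5p had 372 RPM in NCD and 200.4 RPM in Nor (0.89), and miR-223-3p, of neutrophils and monocytes, had 25.1 RPM in NCD and 13.1 RPM in Nor (0.92). Of 3 lymphocyte miRNAs, 2 were past 2-fold (miR-155-5p and miR-150-5p), and miR-342-3p was at 0.92. In the long RNA pools 8 of 20 tested leukocyte markers rose, Ccl5, Cd14 and Mpeg1 among them, against 7.93% of all 11557 genes tested. The summed level of the listed leukocyte markers was 468 and 475 FPKM in NCD and 180 and 287 FPKM in Nor. That count was 3 when Nor replicate 1, NCD replicate 1 or NCD replicate 2 was left out and was 12 without Nor replicate 2. The part of leukocytes in the levels of miR-146 and miR-155 was not tested.

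Other cell types moved less. The 2 endothelial miRNAs (miR-126a, 16732 RPM in NCD and 14845 RPM in Nor for its 3p arm), the 4 erythroid ones (miR-451a, 856 RPM in NCD and 785 RPM in Nor) and the 7 of stellate and mesenchymal cells (miR-199a-3p, 1331 RPM in NCD and 1027 RPM in Nor) held 0 past 2-fold, with median log2 ratios of 0.13, 0.18 and 0.34. Over all 290 miRNAs, 19.7% were at least 2-fold higher and 0.0% at least 2-fold lower. With TMM the medians of the endothelial and erythroid lists lay at -0.17 and -0.12. Pancreatic and neural miRNAs were all below the minimum, at sums of 5.03 and 4.75 RPM in NCD and 4.45 and 3.09 RPM in Nor. Of 3 muscle miRNAs, 1 passed the minimum, miR-1a-3p, at 82.9 RPM in NCD and 56.4 RPM in Nor (log2 ratio 0.55). The muscle list summed to 85.6 RPM in NCD and 58.0 RPM in Nor. miR-122-5p, the hepatocyte miRNA, led both libraries, and the pancreatic and neural markers left few reads in either.

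**Figure D4:**
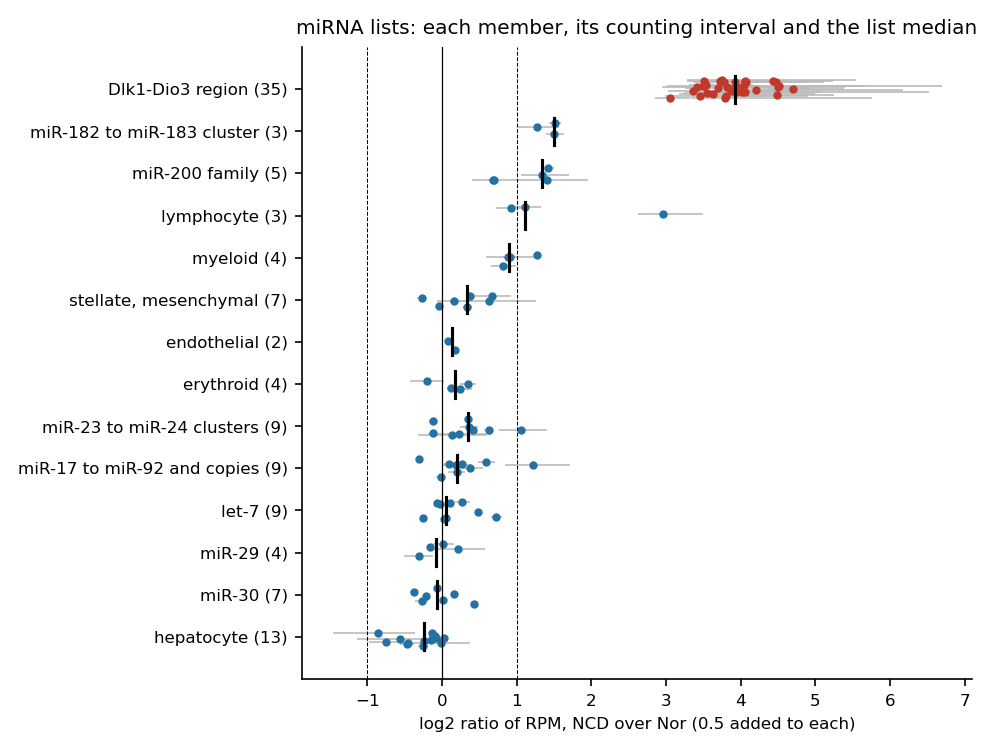
Log2 ratio of RPM, NCD over Nor, for each miRNA of 14 lists (number of members in brackets). Points are miRNAs, grey lines are 95% counting intervals of the ratio without the added 0.5 RPM, black bars are list medians and dashed lines mark 2-fold; the Dlk1-Dio3 list lies between 3.06 and 4.71, and the hepatocyte list has its median at -0.23.

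Several large families stayed near equality on the RPM scale, on which 19.7% of all 290 miRNAs were at least 2-fold higher and 0.0% at least 2-fold lower. All 9 let-7 miRNAs passed the minimum with 0 past 2-fold and a median log2 ratio of 0.05, and their sum was 112936 RPM in NCD and 113791 RPM in Nor. Within let-7, which restrains growth-related genes and rises as tissues mature, let-7e-5p was the highest at 0.73 and let-7g-5p the lowest at -0.25. The 7 miR-30 members had a median of -0.06 and the 4 miR-29 members one of -0.07. Of 9 miR-17-92 miRNAs and copies that passed the minimum, miR-19a-3p alone reached 2-fold (median 0.20). The medians of let-7, miR-17-92, miR-30 and miR-29 lie below 0 with TMM (-0.25, -0.10, -0.36 and -0.37), against -0.06 over all 290 miRNAs. The 4 miRNAs of H19 and Igf2 (miR-675 and miR-483) held 6 reads in NCD and 1 in Nor.

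Shared seeds and shared transcripts were set side by side. Of 204 seeds among the miRNAs with a RefSeq entry, 26 were shared by 2 or more. In 2 of those every measured carrier was at least 2-fold higher: GAGAACU of miR-146a-5p and miR-146b-5p, and AUGUAAC of miR-379-3p and miR-411-3p. In 4 others only some were, namely the seeds of miR-200b, miR-10, miR-19 and miR-329. Of these 4, the last pair is the widest apart, with miR-329-3p of the Dlk1-Dio3 region at 13.5 RPM in NCD and 0.741 RPM in Nor and the X-linked miR-362-3p at 19.5 RPM in NCD and 19.02 RPM in Nor.

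By position, 36 clusters held measured miRNAs of 2 or more precursor names on 1 strand, with gaps of at most 10 kb. Some are arms of 1 hairpin under different names (miR-365-2-5p and miR-365-3p) or rows antisense to another cluster (miR-3074). The 36, and the 28 with none past 2-fold, therefore overstate the number of separate clusters. In 4 clusters every member was past 2-fold, which are the 3 groups of the Dlk1-Dio3 region and the group of miR-182. Members rare in Nor, such as miR-341-3p and miR-370-3p (27 and 14 reads in Nor), entered through their reads in NCD. The filter therefore favours such full counts in the Dlk1-Dio3 groups. In 4 only some were, and in 28 none. Of 73 hairpins, both arms were past 2-fold in 11, 1 arm in 3 (miR-200a, miR-27a and miR-31) and neither in 59. Over the 64 hairpins outside the Dlk1-Dio3 region the log2 ratios of the arms had a Pearson correlation of 0.92. It is given as a description, since arms share a precursor, a library and a total. The value leans on miR-146b, at 7.89 for its 5p arm and 4.43 for its 3p arm. The next highest arm among the 64 was miR-200a-5p at 1.41. A correlation without miR-146b was not computed. The GC content of the mature sequence had a median of 45.5% over the 55 higher miRNAs with an entry and 45.5% over the 196 others, and 40.9% over the 21 higher ones outside the Dlk1-Dio3 region.

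RNAs that carry miRNAs in their introns or exons were read in the long RNA pools. Of 55 host features of 42 listed genes, 45 were tested, of which 1 rose and 2 fell. Among all features tested, 13.9% of mRNA genes and 1.74% of noncoding transcripts were called in either direction. The 45 host features mix both kinds, so their count of calls is not read as a result about hosts. The mRNA calls numbered 916 higher (7.93%) and 693 lower (6.0%), and with FPKM scaled to equal sums they numbered 1670 higher and 96 lower, with the median log2 change of all genes at 0.16 in place of -0.04. The transcript that rose was H19, an imprinted oncofetal RNA and the precursor of miR-675, with 46.6 and 19.7 FPKM in the NCD pools and 0.0177 and 0.0541 FPKM in the Nor pools (log2 change 5.85 ± 0.49, SE, limma adjusted p = 0.000807). It lost its call when Nor and NCD were fitted without the other groups (limma adjusted p = 0.0628). The small RNA libraries held 4 reads of miR-675-3p and 1 of miR-675-5p in NCD and 0 of either in Nor, which allows up to 0.370 RPM there.

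The hosts that fell were Pank1, a pantothenate kinase that holds miR-107, and Tln2, a talin that holds miR-190a. Pank1 had 64.8 and 76.1 FPKM in NCD and 119.6 and 101.4 FPKM in Nor (log2 change -0.65 ± 0.15, SE, limma adjusted p = 0.0286). Tln2 had 1.20 and 1.53 FPKM in NCD and 2.33 and 2.49 FPKM in Nor (-0.65 ± 0.17, SE, limma adjusted p = 0.0411). The pools of the groups do not overlap for either gene. Both calls were lost with FPKM scaled to equal sums, with NCD and Nor fitted alone, and without Nor replicate 1, NCD replicate 1 or NCD replicate 2, and that of Tln2 also without Nor replicate 2, with a pseudocount of 0.1 and with no filter.

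**Figure D5:**
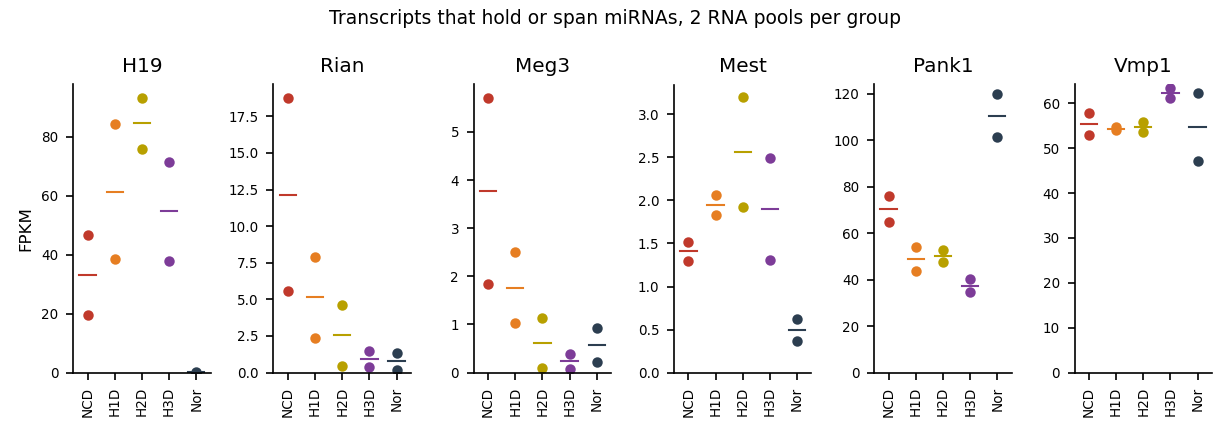
FPKM of transcripts that hold or adjoin miRNAs in the 2 long RNA pools of each group (points) with the group mean (line), each panel on its own linear axis from 0. H19 is near 0 in Nor alone, the NCD pools of Rian and Meg3 differ about 3-fold from each other, and Pank1 is lower in NCD than in Nor.

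Messenger RNAs known as targets of the listed miRNAs were read in the same long RNA pools. Acsl1 and Aldh2 were on the miR-27 list as candidates of the published study of these mice. Of 62 listed targets, 49 were tested, of which 10 rose and 3 fell (over all genes tested, 7.93% rose and 6.0% fell), with a median log2 change of 0.32 against -0.04 over all genes tested. The one miR-122 target that rose was Klf6 (9.41 and 7.42 FPKM in NCD, 2.48 and 3.81 FPKM in Nor, limma adjusted p = 0.0143), a zinc-finger regulator of growth, a call lost with the 2 groups alone and on leaving out NCD replicate 1 or Nor replicate 1. The miR-29 list, of collagens and other matrix genes, had the most: 6 of 10 rose, among them Col4a1 (13.2 and 13.9 FPKM in NCD, 4.56 and 6.505 FPKM in Nor, limma adjusted p = 0.0153) and Col3a1 (9.70 and 11.7 FPKM in NCD, 4.05 and 4.82 FPKM in Nor, limma adjusted p = 0.0159). That count was 1 without Nor replicate 1, 1 without NCD replicate 1 and 0 without NCD replicate 2. miR-29a-3p itself had 2941 RPM in NCD and 3299 RPM in Nor, a log2 ratio of -0.17, and 4 of 12 stellate cell markers rose, collagens counted in both lists among them. The summed level of those markers was 157 and 148.2 FPKM in NCD and 130.2 and 160 FPKM in Nor, which overlap, and their count was 1 without Nor replicate 1 or NCD replicate 1 and 0 without NCD replicate 2. The part of stellate cells in the collagen levels was not tested.

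Among 8 tested targets of miR-21a-5p, 2 rose and 0 fell, where 7.93% of all genes tested rose and 6.0% fell. Tpm1, a tropomyosin, had 34.6 and 34.4 FPKM in NCD and 12.7 and 11.7 FPKM in Nor (log2 change 1.47 ± 0.11, SE, limma adjusted p = 0.000415), and Btg2, an antiproliferative p53 target, had 29.3 and 27.5 FPKM in NCD and 7.01 and 10.8 FPKM in Nor (1.65 ± 0.20, SE, limma adjusted p = 0.00288). Both calls held in every alternative fit. Pdcd4 had 77.1 and 79.7 FPKM in NCD and 67.9 and 66.5 FPKM in Nor (limma adjusted p = 0.248), without overlap of the pools. It was called higher with FPKM scaled to equal sums.

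Of the 5 tested miR-27 targets, 2 fell (over all genes tested, 7.93% rose and 6.0% fell). Acsl1 and Aldh2 were listed as the published study's own miR-27a candidates in these mice, so their values are no independent reading of miR-27 targets. Acsl1, a long-chain acyl-CoA synthetase, had 245 and 307 FPKM in NCD and 524 and 504 FPKM in Nor (log2 change -0.90 ± 0.14, SE, limma adjusted p = 0.00753), a call lost without NCD replicate 1 (limma adjusted p = 0.0584). Ppara, the fasting regulator of fat oxidation, had 39.4 and 50.0 FPKM in NCD and 58.6 and 71.1 FPKM in Nor (limma adjusted p = 0.0414), a call lost with FPKM scaled to equal sums, with no filter, with the 2 groups alone, and without either NCD replicate or Nor replicate 2. Aldh2, the mitochondrial aldehyde dehydrogenase, had 1070 and 1119 FPKM in NCD and 1411 and 1573 FPKM in Nor (limma adjusted p = 0.0502). It was called lower with a pseudocount of 0.1. Of 10 tested miR-34 targets, 1 rose and 1 fell, beside the same shares of all genes. Ccnd1 (cyclin D1) rose, with 16.3 and 24.2 FPKM in NCD and 8.47 and 4.22 FPKM in Nor (limma adjusted p = 0.0341). The receptor Met fell, with 20.8 and 20.4 FPKM in NCD and 29.7 and 29.3 FPKM in Nor (limma adjusted p = 0.0128). Both of these calls were lost without either NCD replicate and with the 2 groups fitted alone, that of Met also with FPKM scaled to equal sums, and that of Ccnd1 also with no filter and without Nor replicate 2. Zeb1 and Zeb2, the classical miR-200 targets, did not pass (limma adjusted p = 0.389 and 0.223).

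For miR-146, miR-155 and the miR-182 cluster, targets were listed after the ratios of these miRNAs had been seen. Of 16 tested, 3 rose (Socs1 and Inpp5d among them) and 2 fell (Cebpb and Foxo1), where 7.93% of all genes tested rose and 6.0% fell. The calls of Inpp5d and Foxo1 were lost on leaving out NCD replicate 1 or Nor replicate 1. Both were also lost with no filter and with the 2 groups alone, that of Inpp5d without NCD replicate 2, and that of Foxo1 with FPKM scaled to equal sums. The miR-146 targets Traf6 (4.32 and 4.17 FPKM in NCD, 7.30 and 4.79 FPKM in Nor) and Irak1 (18.7 and 19.7 FPKM in NCD, 20.3 and 20.3 FPKM in Nor) did not pass (limma adjusted p = 0.114 and 0.548), and the sign of Irak1 turned with FPKM scaled to equal sums. Socs1, a miR-155 target that blocks cytokine signalling, rose (1.11 and 1.14 FPKM in NCD, 0.0747 and 0.0377 FPKM in Nor, limma adjusted p = 0.0267), a call lost when any 1 of the 4 pools was left out. Cebpb, also a miR-155 target, fell (60.1 and 63.1 FPKM in NCD, 130.3 and 122.2 FPKM in Nor, limma adjusted p = 0.0111), a call lost without either NCD replicate.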

How the data were processed

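Small RNA was measured in 5 libraries (1 pool per group) and long RNA in 10 (2 pools per group). The small RNA table that the authors deposited holds counts of reads for each mature miRNA, and a column of RPM that the authors made, which was not used. Mapping of these reads is not given in the sources used here. The long RNA tables give FPKM per transcript, as deposited, with unknown depth. The submitters' processing notes name, with no role, TopHat2 2.0.9, Bowtie2 2.0.6, Cuffdiff 2.1.1, Cufflinks 2.1.1 and GRCm38.

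RPM were computed from counts and column totals. Ratios have exact (Clopper-Pearson) intervals, conditional on the summed count. TMM factors came from edgeR 4.0.16, and DESeq2 1.42.0 size factors (R 4.3.3) were an alternative. The 34 rows with provisional names stayed in the totals, and 0 passed the minimum. A count of 0 allows up to 3 reads.

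FPKM were summed per gene for mRNA, filtered (1 FPKM in 2 libraries, or 0.5 for noncoding transcripts, tested together) and fitted as log2(FPKM + 0.5) with limma 3.58.1, with 1 coefficient for each of 5 groups, two-sided. Benjamini-Hochberg adjusted p below 0.05 was a call ("rose", "fell"). Low genes are understated on that scale. Scripts were tested on simulated data. Nothing says that pools hold separate animals, so p-values measure only the spread between pools.

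Members, lists and targets were chosen with earlier results of these data known. Named are the largest and lowest ratios, the most abundant miRNAs and listed members. Targets of miR-146, miR-155 and the miR-182 cluster and mRNA markers of cell types were added after values were seen. A few listed genes are not reported here. Plots used Python 3.11.15 and matplotlib 3.10.9.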

Additional observations from a re-analysis of the deposited data

How the results depend on the processing

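The count of miRNAs at least 2-fold higher in NCD was 57 and stayed within 1.5 times of that with TMM (47), DESeq2 size factors (53), totals without the 10 most abundant miRNAs (53), pseudocounts of 0.1 (58) and 5 (53), the interval rule (51) and rows summed by overlap (54) or seed (51). These counts are out of 290 miRNAs, but out of 281 for rows summed by overlap and 244 by seed. With a minimum of 1000 reads it was 17 of 142. Chosen after seeing the data, a minimum of 1 read without the provisionally named rows gave 120 of 850 higher and 0 lower. The planned setting over all rows adds the 29 provisional rows with reads, of which 2 were at least 2-fold higher and 1 at least 2-fold lower. Also chosen then, 100 reads in Nor alone gave 23 of 217 and leaving out the Dlk1-Dio3 list gave 22 of 255. As the number of miRNAs differs between settings, the counts are to be read beside it. The count lower was 0, and was 7 with TMM, 5 with DESeq2 size factors and 6 without the 10 most abundant. Of the alternative values of the named miRNAs, 235 stayed within the counting interval and 140 moved past it. Among those past 2-fold 0 reversed in sign, which shifts smaller than 2-fold (-0.30 with TMM) could not bring about. Signs turned among smaller log2 ratios, as for let-7f-5p (0.10, or -0.20 with TMM) and miR-126a-3p (0.17, or -0.13 with TMM). Host transcripts called numbered 3, and 0 with Nor and NCD fitted alone, 5 with FPKM scaled to equal sums, and 1 to 3 with 1 pool left out. With the replicate number as a block they numbered 5 against 3, and called targets 15 against 13. Same-numbered pools of NCD and Nor share only a number (correlation of their deviations 0.055), so this is no paired design. Called targets numbered 3 to 19 with 1 pool left out, lowest without NCD replicate 1. Of 27 named long RNA calls, 7 held in every fit (Btg2, Ccl5, Cd14, Mpeg1, Prom1, Spp1 and Tpm1). The log2 change of Vmp1 ran from -0.17 to 0.23 with 1 pool left out (-0.03 without NCD replicate 1), and that of Irak1 to 0.13 with FPKM scaled to equal sums. The cause was not tested. Depth limits the rare miRNAs, where under 50 reads in Nor leave wide intervals, and 1 library per group leaves the spread between animals unknown.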

Other observations

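Among the rows with provisional names, novel_136 had 64 reads in NCD and 5 in Nor, a ratio of 14.5 (interval 5.89 to 46.1), which is inside the range of the Dlk1-Dio3 members; it is below the minimum of 100 reads, and its position is not given in the sources used here. The 29 provisional rows with a read include 2 at least 2-fold higher in NCD and 1 lower, novel_176, with 2 reads in NCD and 13 in Nor. Of the Dlk1-Dio3 miRNAs below the minimum, miR-299a-5p had 75 reads in NCD and 2 in Nor, miR-1193-3p had 79 in NCD and 3 in Nor, and miR-493-5p had 36 in NCD and 0 in Nor.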
